A study of Mus musculus with 15 samples.

Results

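The genes described here make sterols in the cell or control that synthesis through the transcription factor SREBP2. They are a list of 28 named mouse genes, all of them found among the 51763 gene identifiers of the count table, and all of them passed the filter on low counts. The list was set by pathway membership and not by a threshold on the counts. It was drawn up with earlier results of these data known, so the counts below, set beside all genes, are descriptive. In bone-marrow-derived macrophages (BMDMs), the mRNAs of many synthesis enzymes were higher after dsHMGB1 than after LPS or LPS/IFNγ. Behind this lay falls from PBS after LPS and LPS/IFNγ, as in Lss and Msmo1, as well as rises after dsHMGB1, as in Cyp51. The rises depend on scaling: 12 of the 28 genes were called above PBS after dsHMGB1, and 5 with scaling by total counts. Of the list, 11 genes were higher and 1 was lower against LPS, and 16 were higher and 3 lower against LPS/IFNγ, where all genes tested gave 15.8% and 10.6%, and 16.5% and 16.7%. The gene for SREBP2 itself, Srebf2, rose over PBS after dsHMGB1, LPS and LPS/IFNγ, but with scaling by total counts the rise after LPS/IFNγ was not called. In the fit of all libraries Srebf2 was not called different between dsHMGB1 and either of the others. Once PBS replicate 3 was left out, it was called higher in dsHMGB1 than in LPS/IFNγ. Insig2, which encodes a protein that holds SREBP2 back, was 1.81-fold higher in LPS and 4.46-fold higher in LPS/IFNγ than in dsHMGB1.

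RNA was sequenced from 15 libraries of BMDMs, 3 for each of 5 conditions, after 24 h of stimulation. The cells of all conditions were matured with macrophage colony-stimulating factor from bone marrow of wild-type female C57BL/6NTac mice aged 8 to 10 weeks. The labels give 10 days of culture. The study's methods give a shorter maturation, followed by an overnight rest in medium with less serum before stimulation. PBS was the control, frHMGB1 was the fully reduced and dsHMGB1 the disulfide form of recombinant HMGB1 (a nuclear protein that acts as an alarm signal once outside the cell), each at 5 µg/mL. LPS (bacterial lipopolysaccharide) was used alone at 1 µg/mL, and LPS/IFNγ, the M1 condition of the study, combined LPS with 20 ng/mL of interferon-γ. The labels give the LPS concentration of LPS/IFNγ as 1 µg/mL in one field and 100 ng/mL in another. The study's methods give 100 ng/mL, so by them LPS/IFNγ differed from LPS in the LPS dose as well as in IFNγ. Macrophages of 5 mice were pooled before seeding, so the 3 libraries of a condition are technical replicates. A p-value given here therefore measures variation among cultures and libraries alone, and variation among mice was not sampled. In bulk RNA, fewer cells with an mRNA and less of it per cell cannot be told apart.

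Cholesterol is built from acetyl-CoA. The mevalonate steps give isoprenoid units, which are joined to farnesyl diphosphate and then either to squalene, on the way to sterols, or to longer isoprenoids that anchor proteins in membranes. Squalene is oxidised and closed to lanosterol, the first sterol, and a chain of reductases, demethylases and isomerases turns lanosterol into cholesterol. SREBP2 is made as a membrane protein of the endoplasmic reticulum. When sterols are scarce, the escort protein SCAP carries it to the Golgi, where the proteases encoded by Mbtps1 and Mbtps2 release its transcription factor domain. When sterols are plentiful, INSIG1 and INSIG2 keep SCAP and SREBP2 in the endoplasmic reticulum. In macrophages, sterol synthesis and the oxysterols made from its products are known to be tied to inflammatory and interferon responses.

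The libraries held between 40934540 and 80925478 counts. PBS replicate 3 stood apart: its log2 CPM across genes correlated at r = 0.9349 and 0.9285 with the other PBS libraries, while all other replicate pairs lay between 0.9939 and 0.9988. It also had 1.49% of its counts in processed pseudogenes, against 0.816% and 0.805% in the other PBS libraries, and 0.346% in mitochondrial genes, against 0.840% and 0.890%. Counts of the 28 genes called over PBS are therefore given with and without it. Several values of single genes over PBS, and those of neighbouring pathways, are given with all 3 PBS libraries only. TMM scaling factors, which correct for differences in library composition, ran from 1.13 to 1.31 in PBS and frHMGB1 and from 0.785 to 0.818 in LPS and LPS/IFNγ. In dsHMGB1 they ran from 0.976 to 0.987. With plain total-count scaling instead, the median log2 fold change over PBS of all genes tested moved from -0.10 to -0.46 in dsHMGB1, from -0.21 to -0.89 in LPS and from -0.12 to -0.81 in LPS/IFNγ, and comparisons with PBS must be read against that shift. The median also moved from 0.015 to 0.35 for dsHMGB1 over LPS and from 0.011 to 0.33 for dsHMGB1 over LPS/IFNγ. For the 28 genes these medians moved from 0.44 to 0.78 and from 0.76 to 1.09. All 7 macrophage markers were detected, and their summed level lay between 21598 and 25965 CPM in PBS, between 26778 and 27039.6 in frHMGB1, between 18396 and 19638 in dsHMGB1, between 14881 and 15504 in LPS and between 13146 and 13453 in LPS/IFNγ. That sum is mostly Lyz2, and not every marker followed it: mean Adgre1 was 909.6 CPM in PBS and 1738 in dsHMGB1, and mean Mertk was 81.9 in PBS and 398 in LPS/IFNγ. The part of these differences in the results below was not tested. The fibroblast list summed to 118 CPM in PBS replicate 3, to 264 and 282 in the other PBS libraries and to between 189 and 247 in the stimulated ones, with Col1a1 at a mean of 105 and Col1a2 at 98.5 in PBS. Of the blood cell lists, Ly6g, S100a9, Mpo, Cd3e, Cd3d, Hba-a1 and Hbb-bs had 0 counts. Of the dendritic cell list, Zbtb46 and Xcr1 averaged 7.03 and 6.57 CPM in LPS/IFNγ, against 0.331 and 1.68 in PBS.

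The promoters of 5 genes are printed because these genes stand for the different courses seen below: Hmgcs1 and Lss for enzymes that were higher in dsHMGB1 than in LPS/IFNγ, Dhcr7 for the enzyme that fell most from PBS, and Insig1 and Insig2 for the regulators. Each is the run of 250 bases before a gene start in RefSeq (GRCm38.p6), read 5′ to 3′ on the gene's own strand. Capitals mark matches, on either strand, to TCACNCCAC (a form of the sterol regulatory element that SREBPs bind), to CCAAT (bound by NF-Y, a partner of SREBPs, and printed as ATTGG where it lies on the other strand) or to CACGTG (an E-box).
Hmgcs1 (chr13:119690101-119690350, plus strand): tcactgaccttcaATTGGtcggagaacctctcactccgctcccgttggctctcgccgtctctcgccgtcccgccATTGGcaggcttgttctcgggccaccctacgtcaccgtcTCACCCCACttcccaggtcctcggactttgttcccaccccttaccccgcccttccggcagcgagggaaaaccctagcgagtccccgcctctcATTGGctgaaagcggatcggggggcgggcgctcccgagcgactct
Lss (chr10:76531355-76531604, plus strand): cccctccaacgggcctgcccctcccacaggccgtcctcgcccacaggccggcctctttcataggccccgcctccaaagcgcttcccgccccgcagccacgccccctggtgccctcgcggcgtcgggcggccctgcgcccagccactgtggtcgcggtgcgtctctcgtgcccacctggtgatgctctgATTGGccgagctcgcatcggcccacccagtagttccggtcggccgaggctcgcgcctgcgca
Dhcr7 (chr7:143822917-143823166, plus strand): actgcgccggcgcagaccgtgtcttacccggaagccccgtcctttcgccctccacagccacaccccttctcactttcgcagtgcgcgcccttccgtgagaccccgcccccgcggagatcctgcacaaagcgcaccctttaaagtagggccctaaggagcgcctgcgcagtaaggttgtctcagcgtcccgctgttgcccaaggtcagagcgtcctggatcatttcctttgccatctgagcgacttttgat
Insig1 (chr5:28071162-28071411, plus strand): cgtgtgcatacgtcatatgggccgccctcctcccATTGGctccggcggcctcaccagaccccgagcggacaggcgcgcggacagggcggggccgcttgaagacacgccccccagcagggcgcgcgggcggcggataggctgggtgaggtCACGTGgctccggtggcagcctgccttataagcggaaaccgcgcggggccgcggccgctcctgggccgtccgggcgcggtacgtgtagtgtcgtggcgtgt
Insig2 (chr1:121332590-121332839, minus strand): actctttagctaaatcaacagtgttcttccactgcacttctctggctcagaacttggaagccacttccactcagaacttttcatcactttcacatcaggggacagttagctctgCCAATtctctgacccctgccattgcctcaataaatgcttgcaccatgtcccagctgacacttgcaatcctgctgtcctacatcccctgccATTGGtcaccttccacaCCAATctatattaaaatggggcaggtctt
The Hmgcs1 run holds 1 TCACNCCAC match and 3 CCAAT matches, Lss holds 1 CCAAT, Insig1 holds 1 CCAAT and 1 CACGTG, Insig2 holds 3 CCAAT, and the printed Dhcr7 run holds none of the 3 motifs. The table lists several starts for some genes, each counted below: of the 2 other Dhcr7 runs, 1 holds a CACGTG and 1 holds 2 CCAAT, and the 2 other Insig2 runs hold none. RefSeq promoters were found for 24 of the 28 genes (not for Fdft1, Fdps, Sqle and Stard4). CCAAT was present for 20 of these 24, against 37.5% of all genes with a promoter in the table, CACGTG for 5 of 24, against 6.86%, and TCACNCCAC for 1 of 24, against 1.23%. A match describes letters and shows no binding.

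**Figure D1:**
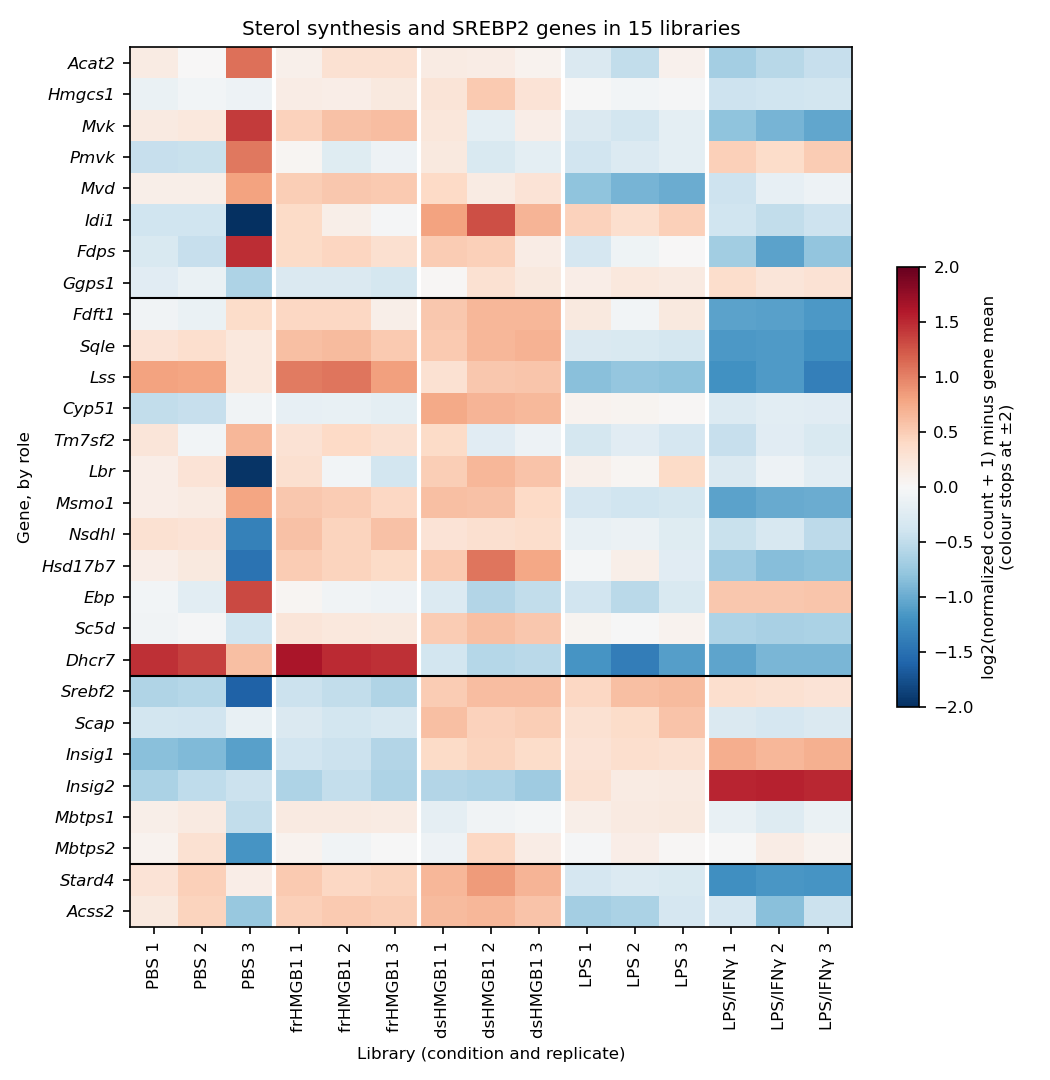
Heat map of the 28 genes (rows, ordered by role from mevalonate steps at the top to other SREBP2 targets at the bottom) in the 15 libraries (columns), coloured by log2(normalized count + 1) minus the gene's mean over all libraries, with colours stopping at ±2. Sqle and Stard4 are highest in a dsHMGB1 library and lowest in LPS/IFNγ, Insig1 and Insig2 are highest in LPS/IFNγ, and PBS replicate 3 differs from the other PBS libraries in many rows.

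Per kilobase of exon (TMM-scaled CPM), the genes covered a wide range of levels. After dsHMGB1, Srebf2 at 42.2 and Insig1 at 40.3 led, followed by Cyp51 at 21.2, and Acss2 at 0.561 and Tm7sf2 at 0.908 were lowest. In LPS/IFNγ the order was headed by Insig1 at 49.1, Srebf2 at 34.4 and Insig2 at 29.7, so that 3 regulators stood above every enzyme.

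The comparison of dsHMGB1 with LPS asks how an alarm protein of the host and a bacterial product differ in the response they give. Of the 28 genes, 11 were called higher in dsHMGB1 and 1 lower (edgeR quasi-likelihood test, adjusted p under 0.05 over 16919 genes), while 15.8% of all genes tested were called higher and 10.6% lower. Fold changes with their standard errors (SE) and normalized counts, which are counts divided by a size factor per library, were taken from DESeq2, n = 3 per condition. The median log2 fold change of the 28 was 0.44, against 0.02 for all genes tested. The 11 were Hmgcs1, Mvd, Fdft1, Sqle, Lss, Cyp51, Msmo1, Sc5d, Dhcr7, Stard4 and Acss2, that is 2 of 8 mevalonate and isoprenoid genes, 7 of 12 squalene and sterol genes and both other targets, and none of the 6 genes of SREBP2 and its control (0 higher in edgeR at an unadjusted p under 0.05, and 0 in DESeq2). The 1 lower gene was Insig2. In 19 genes all 3 dsHMGB1 libraries lay above all 3 LPS libraries, and in 2, Insig2 and Mbtps1, all lay below, against 26.4% and 26.5% of all genes tested. With PBS replicate 3 left out, which bears on this comparison only through scaling, filtering and the shared estimate of the spread, 18 genes were called higher and 2 lower (25.6% and 23.3% of all genes tested). Total-count scaling gave 17 higher and 1 lower, against 27.5% and 5.23%. The 17 included 2 of the 6 genes of SREBP2 and its control, Scap at 0.44 and Insig1 at 0.43.

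Against LPS/IFNγ the difference was wider. dsHMGB1 was called higher in 16 genes and lower in 3, against 16.5% and 16.7% of all genes tested, with a median log2 fold change of 0.76 for the 28 genes and 0.01 for all. Higher were 6 of the 8 mevalonate and isoprenoid genes (Acat2, Hmgcs1, Mvk, Mvd, Idi1, Fdps), 7 of the 12 squalene and sterol genes (Fdft1, Sqle, Lss, Cyp51, Msmo1, Hsd17b7, Sc5d), Scap, Stard4 and Acss2. Lower were Ebp, Insig1 and Insig2. In 21 genes the dsHMGB1 libraries all lay above the LPS/IFNγ libraries and in 4 all below, against 28.6% and 30.5% of all genes tested. Leaving out PBS replicate 3 gave 21 higher and 4 lower (27.9% and 25.4% of all genes tested), and total-count scaling gave 19 and 2 (28.4% and 9.83%). The call on Insig1 was weak: it was lost when any 1 dsHMGB1 library was left out, and with total-count scaling the difference was 0.022. The call on Ebp was lost without dsHMGB1 replicate 2 or without replicate 3. The 2 comparisons share the dsHMGB1 libraries and are not independent.

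**Figure D2:**
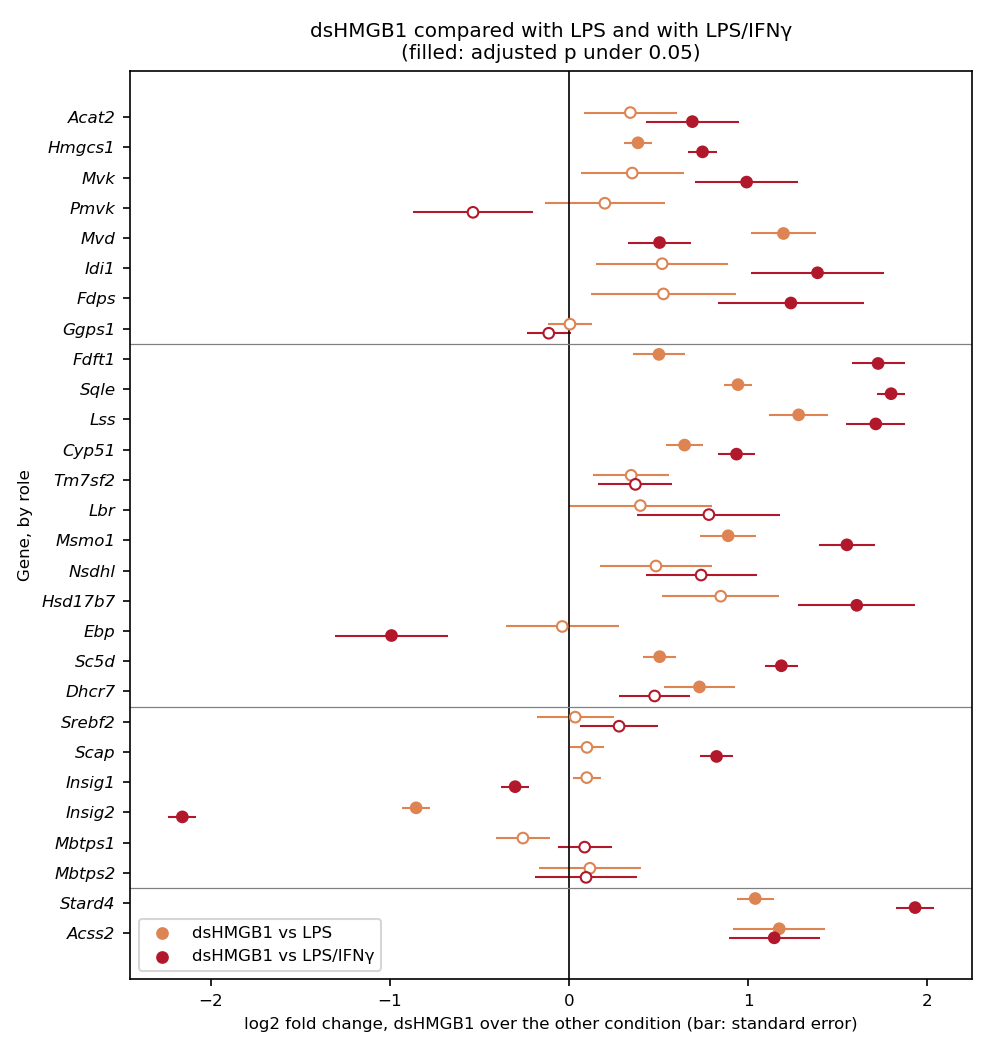
Log2 fold change of dsHMGB1 over LPS (orange) and over LPS/IFNγ (red) for each of the 28 genes (vertical axis, ordered by role), with standard errors as bars and filled points where the edgeR adjusted p was under 0.05. Most points lie right of 0, up to 1.28 for Lss over LPS and 1.93 for Stard4 over LPS/IFNγ, while Insig2 lies left of 0 in both comparisons.

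LPS/IFNγ compared directly with LPS gave 4 genes higher (Mvd, Ebp, Insig1, Insig2) and 7 lower (Hmgcs1, Fdft1, Sqle, Msmo1, Sc5d, Scap, Stard4), against 16.3% and 9.36% of all genes tested, and the median was -0.35 against 0.0025 for all genes. There were 6 higher and 18 lower once PBS replicate 3 was left out (25.1% and 24.3% of all genes tested). Total-count scaling left 4 higher and 8 lower, against 14.7% and 9.81%. The difference in IFNγ and the difference in LPS dose given by the study's methods cannot be told apart here.

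Of the 8 mevalonate and isoprenoid genes, Mvd and Hmgcs1 were called higher in dsHMGB1 than in LPS. Mvd, which encodes the decarboxylase that yields the isoprenoid unit (ENSMUSG00000006517, GRCm38 chromosome 8, 122433601 to 122443422, minus strand), had normalized counts of 1339.6, 1336 and 2147 in PBS, 1744, 1794 and 1765 in frHMGB1, 1620.1, 1384 and 1495 in dsHMGB1, 702, 644 and 616 in LPS, and 925, 1095 and 1149 in LPS/IFNγ. The dsHMGB1 libraries stood above all LPS libraries, and LPS/IFNγ lay between them without overlap. The log2 fold change of dsHMGB1 over LPS was 1.20 (SE 0.18, edgeR adjusted p = 5.41e-05), and that of LPS/IFNγ over LPS was 0.69 (SE 0.18, edgeR adjusted p = 0.00292). Mvd and Ebp were the enzymes called higher in LPS/IFNγ than in LPS.

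Idi1, the isomerase that balances the isoprenoid units (ENSMUSG00000058258, chromosome 13, 8885501 to 8892451, plus strand), had normalized counts of 192, 193 and 46.9 in PBS, 332, 277 and 250.2 in frHMGB1, 445, 624 and 408 in dsHMGB1, 353, 323 and 354 in LPS, and 193, 179.9 and 192 in LPS/IFNγ. The dsHMGB1 libraries were the highest and did not overlap with any other condition, whereas LPS/IFNγ overlapped with PBS replicates 1 and 2, and PBS replicate 3 was far lower. Idi1 was higher in dsHMGB1 than in LPS/IFNγ by a log2 fold change of 1.39 (SE 0.37, edgeR adjusted p = 0.0108). Over PBS its log2 fold change was 1.76 (SE 0.37) in dsHMGB1 and 1.24 (SE 0.37) in LPS, and without PBS replicate 3 these were 1.35 and 0.83, both still called. Total-count scaling ended the call in LPS, at 0.48. The processed pseudogene Gm13502 matches 684 bases of Idi1 transcript at 100% identity and has no entry among the counts. Its part in the Idi1 counts was not tested.

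Mvk, mevalonate kinase (ENSMUSG00000041939, chromosome 5, 114444269 to 114460591, plus strand), had normalized counts of 346, 356 and 809.5 in PBS, 424, 459 and 472 in frHMGB1, 358, 269 and 338 in dsHMGB1, 249, 238 and 268 in LPS, and 176, 161 and 148 in LPS/IFNγ. All LPS/IFNγ libraries lay below all others, and PBS replicate 3 stood far above the other PBS libraries. For dsHMGB1 over LPS/IFNγ the log2 fold change was 0.99 (SE 0.29, edgeR adjusted p = 0.00693). Against PBS, Mvk was called lower in dsHMGB1, but without PBS replicate 3 the log2 fold change went from -0.64 to -0.13 and the call was lost. In LPS and LPS/IFNγ it remained lower without that library, at -0.49 and -1.13.

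Hmgcs1, which makes the precursor of mevalonate, was higher in dsHMGB1 than in every other condition without overlap. Its log2 fold change was 0.38 (SE 0.079, edgeR adjusted p = 0.00279) for dsHMGB1 over LPS, and it was 0.74 (SE 0.078, edgeR adjusted p = 2.25e-05) over LPS/IFNγ. Acat2, the thiolase of the first step, and Fdps, farnesyl diphosphate synthase, were higher in dsHMGB1 than in LPS/IFNγ by 0.69 (SE 0.26) and 1.24 (SE 0.41). Their counts are uncertain, because Acat2 shares 445 bases of transcript at 98.65% identity with Tcp1, and 4 processed pseudogenes of Fdps held 4572 counts against 4057 for the gene. Pmvk, the next kinase after Mvk, was not called in any comparison in the fit of all libraries with TMM factors. Its LPS/IFNγ libraries nevertheless lay above all dsHMGB1 and all LPS libraries. Without PBS replicate 3, Pmvk was called lower in dsHMGB1 than in LPS/IFNγ, at -0.53, and higher in LPS/IFNγ than in LPS, at 0.735. It was then also called higher over PBS in dsHMGB1, at 0.36, and in LPS/IFNγ, at 0.89. With total-count scaling it was called lower in LPS than in PBS, at -1.14. Ggps1, which makes the isoprenoid for protein anchors and does not lead to sterols, was not called between dsHMGB1, LPS and LPS/IFNγ, and rose over PBS in all 3 by 0.48 (SE 0.12), 0.47 (SE 0.12) and 0.59 (SE 0.12). With total-count scaling none of these rises was called, and the direction turned in LPS, to -0.24, and in LPS/IFNγ, to -0.11. Its exons overlap those of Arid4b on the opposite strand, which had log2 fold changes over PBS of 0.41, 0.66 and 1.01 in the same order, and its part in the Ggps1 counts was not tested. Exons of Acss2 overlap Gss on the opposite strand.

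Among the squalene and sterol genes, Fdft1, Sqle and Lss, which encode squalene synthase, squalene epoxidase and lanosterol synthase and act in that order, had large differences. Sqle (ENSMUSG00000022351, chromosome 15, 59315077 to 59331192, plus strand) had normalized counts of 1733, 1813 and 1653 in PBS, 2160.5, 2219 and 2045 in frHMGB1, 2051, 2271 and 2306 in dsHMGB1, 1174, 1158 and 1116 in LPS, and 648, 648 and 612 in LPS/IFNγ. The 3 stimulated conditions formed a descending order from dsHMGB1 through LPS to LPS/IFNγ with no overlap. dsHMGB1 exceeded LPS by a log2 fold change of 0.94 (SE 0.075, edgeR adjusted p = 5.84e-06), and it exceeded LPS/IFNγ by 1.80 (SE 0.077, edgeR adjusted p = 1.07e-08). LPS/IFNγ was in turn below LPS by -0.85 (SE 0.081).

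Lss (ENSMUSG00000033105, chromosome 10, 76531588 to 76557138, plus strand) had normalized counts of 1422, 1411 and 945 in PBS, 1673, 1715 and 1436 in frHMGB1, 1013, 1192 and 1195 in dsHMGB1, 456, 477 and 466 in LPS, and 351, 371 and 316 in LPS/IFNγ. All LPS and LPS/IFNγ libraries were below every library of the other conditions. The log2 fold change of dsHMGB1 over LPS was 1.28 (SE 0.16, edgeR adjusted p = 6.41e-05), and over LPS/IFNγ it was 1.71 (SE 0.16, edgeR adjusted p = 3.43e-06). LPS/IFNγ was below LPS by -0.43 (SE 0.17), which was not called (edgeR adjusted p = 0.106) although the libraries did not overlap.

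Fdft1 (ENSMUSG00000021273, chromosome 14, 63145150 to 63179578, minus strand) had normalized counts of 927, 889 and 1246 in PBS, 1296, 1296 and 1049 in frHMGB1, 1405, 1532 and 1543 in dsHMGB1, 1114, 936 and 1113 in LPS, and 461, 456 and 439 in LPS/IFNγ. Here LPS overlapped with PBS, and the LPS/IFNγ libraries stood alone at the bottom. The log2 fold change of dsHMGB1 over LPS/IFNγ was 1.72 (SE 0.15, edgeR adjusted p = 2.91e-07), and over LPS it was 0.50 (SE 0.15, edgeR adjusted p = 0.00524). Exons of Fdft1 overlap those of Ctsb on the opposite strand, a gene with 14868275 counts in all libraries against 16456 for Fdft1. The strand setting of the counting is not stated in the sources used here. Ctsb had log2 fold changes of 0.011 for dsHMGB1 over LPS/IFNγ and -0.049 over LPS, and its part in the Fdft1 counts was not tested.

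**Figure D3:**
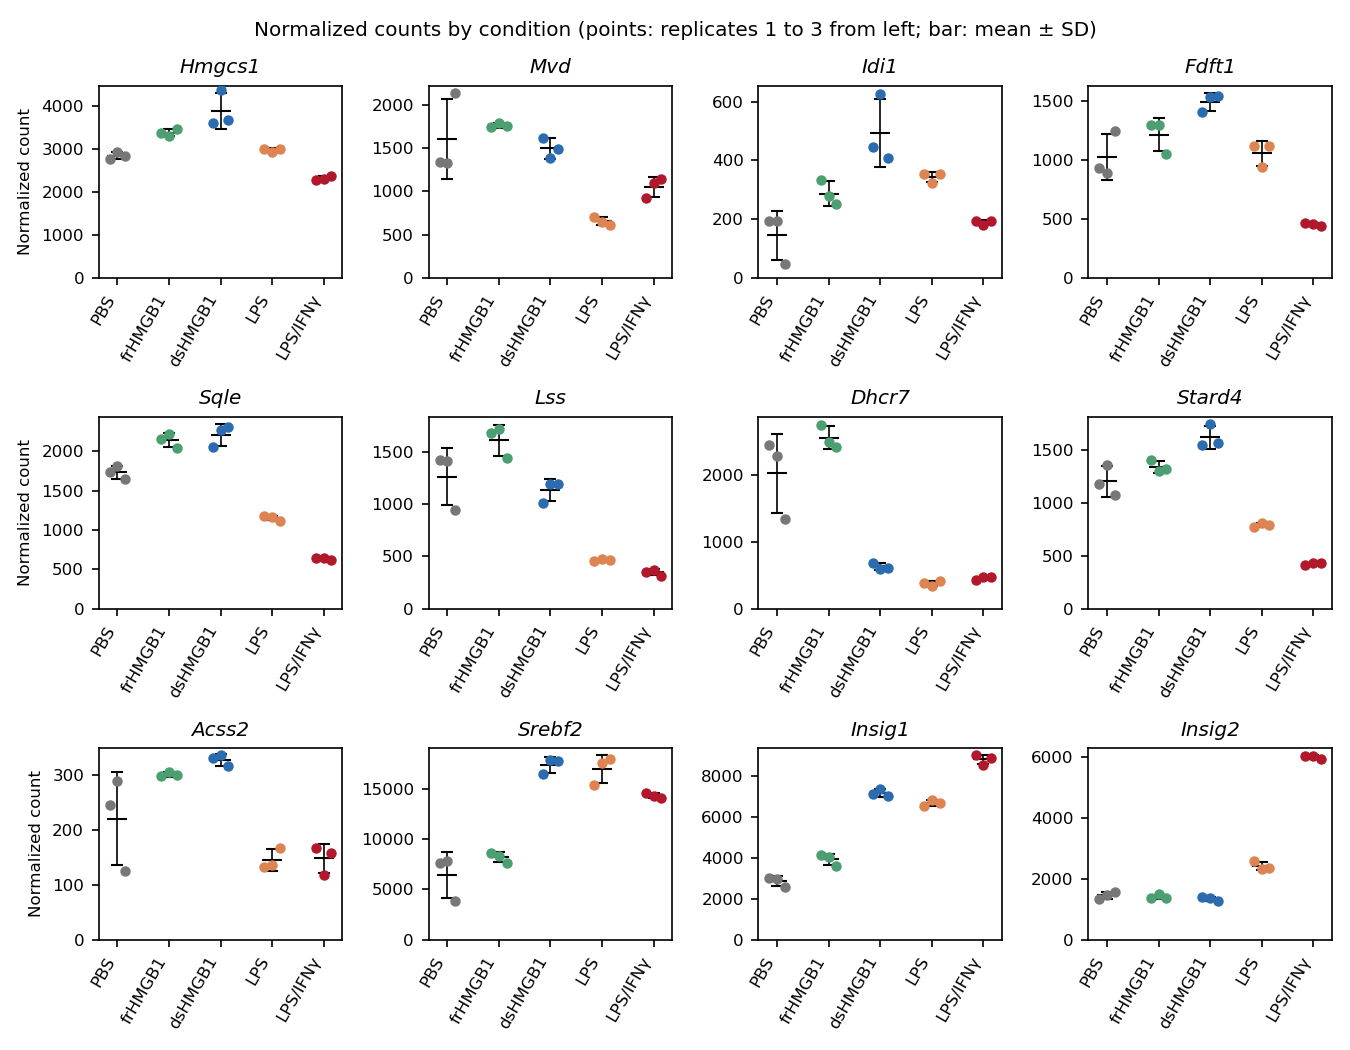
Normalized counts of 12 of the genes (1 panel each, vertical axis starting at 0) in the 5 conditions, with points for replicates 1 to 3 from left to right and bars for the mean ± SD of n = 3. Sqle, Stard4 and Fdft1 step down from dsHMGB1 to LPS to LPS/IFNγ, Dhcr7 is low in all 3 of these conditions, and Insig2 steps up from dsHMGB1 to LPS to LPS/IFNγ.

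The later sterol steps were mixed. Cyp51, the demethylase of lanosterol, and Msmo1 and Sc5d, oxidases of the steps that follow, were higher in dsHMGB1 than in LPS by 0.64 (SE 0.10), 0.89 (SE 0.16) and 0.51 (SE 0.093), and higher than in LPS/IFNγ by 0.93 (SE 0.10), 1.55 (SE 0.16) and 1.18 (SE 0.093). Hsd17b7, a ketoreductase of the same removal of methyl groups, was higher in dsHMGB1 than in LPS/IFNγ by 1.61 (SE 0.33). Cyp51 overlaps Akap9 on the opposite strand, whose part in the Cyp51 counts was not tested. Akap9 had log2 fold changes of -0.060 in dsHMGB1 over LPS and -1.02 over LPS/IFNγ, while over PBS it had 0.27 for dsHMGB1, 0.33 for LPS and 1.29 for LPS/IFNγ. Nsdhl, Lbr and Tm7sf2 were not called between dsHMGB1 and LPS or LPS/IFNγ in the fit of all libraries with TMM factors. Their log2 fold changes were between 0.35 and 0.78, and their dsHMGB1 libraries lay above both other conditions without overlap. Without PBS replicate 3, Nsdhl and Lbr were called higher in both comparisons and Tm7sf2 over LPS/IFNγ. Total-count scaling called Tm7sf2 higher over LPS, at 0.68, and over LPS/IFNγ, at 0.69, and Nsdhl over LPS/IFNγ, at 1.06. Tm7sf2 shares exonic positions with Vps51 on the same strand.

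Ebp, the isomerase that shifts the double bond of the sterol ring, went the other way from most enzymes. It had normalized counts of 1859, 1675 and 4850.0 in PBS, 1994, 1835 and 1797 in frHMGB1, 1606, 1287 and 1367 in dsHMGB1, 1476, 1327 and 1569 in LPS, and 2803, 2816 and 2845 in LPS/IFNγ. LPS/IFNγ lay above dsHMGB1 and LPS without overlap, by -0.99 (SE 0.32, edgeR adjusted p = 0.0158) for dsHMGB1 over LPS/IFNγ and 0.95 (SE 0.32, edgeR adjusted p = 0.0191) for LPS/IFNγ over LPS. Against PBS the value turns on PBS replicate 3. LPS/IFNγ over PBS was 0.015 (SE 0.31) with that library and 0.67 without it, the latter called higher, and with total-count scaling and all libraries it was -0.59 and called lower.

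Dhcr7, which carries out the last reduction to cholesterol (ENSMUSG00000058454, chromosome 7, 143823145 to 143848410, plus strand), had normalized counts of 2449, 2287 and 1348 in PBS, 2754, 2505 and 2429 in frHMGB1, 690.4, 596 and 610.3 in dsHMGB1, 389, 341 and 415 in LPS, and 424, 469 and 468 in LPS/IFNγ. It fell in dsHMGB1, LPS and LPS/IFNγ, where all 9 libraries lay below all 6 PBS and frHMGB1 libraries. The log2 fold change over PBS was -1.68 (SE 0.19, edgeR adjusted p = 9.33e-06), in LPS it was -2.41 (SE 0.20, edgeR adjusted p = 1.85e-07) and in LPS/IFNγ it was -2.16 (SE 0.20, edgeR adjusted p = 5.16e-07). These became -1.91, -2.64 and -2.39 without PBS replicate 3. dsHMGB1 remained above LPS, by 0.73 (SE 0.20, edgeR adjusted p = 0.00978), and was above LPS/IFNγ by 0.48 (SE 0.20), which was not called (edgeR adjusted p = 0.0694).

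Of the 6 genes of SREBP2 and its control, Srebf2 (ENSMUSG00000022463, chromosome 15, 82147181 to 82205379, plus strand) had normalized counts of 7660.0, 7807 and 3803 in PBS, 8637, 8287 and 7685 in frHMGB1, 16512, 17914 and 17830.5 in dsHMGB1, 15444, 17599 and 17973 in LPS, and 14654, 14308 and 14095 in LPS/IFNγ. The lowest of the 9 dsHMGB1, LPS and LPS/IFNγ libraries, at 14095, was above the highest of the 6 PBS and frHMGB1 libraries, at 8637. Srebf2 rose over PBS by a log2 fold change of 1.44 (SE 0.22, edgeR adjusted p = 0.000126), in LPS by 1.40 (SE 0.22, edgeR adjusted p = 0.000137) and in LPS/IFNγ by 1.16 (SE 0.22, edgeR adjusted p = 0.000531). These values were 1.17, 1.13 and 0.88 without PBS replicate 3, and total-count scaling gave 1.03, 0.66 and 0.43, the last no longer called. Between dsHMGB1 and LPS the log2 fold change was 0.035 (SE 0.22) and between dsHMGB1 and LPS/IFNγ 0.28 (SE 0.22), neither of which was called (edgeR adjusted p = 0.818 and 0.336). All dsHMGB1 libraries nevertheless lay above all LPS/IFNγ libraries, and without PBS replicate 3 that difference was 0.29 and was called.

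Scap, the sterol-sensing escort, had normalized counts of 2801, 2767 and 3251 in PBS, 2954, 2812 and 2907 in frHMGB1, 5501, 4985 and 5092 in dsHMGB1, 4459.8, 4673 and 5402 in LPS, and 2951, 2878 and 2974 in LPS/IFNγ. It rose over PBS in dsHMGB1 by 0.82 (SE 0.093) and in LPS by 0.72 (SE 0.094), while LPS/IFNγ lay within the range of PBS, with a log2 fold change of -0.00090 (SE 0.094). With total-count scaling the rise in LPS was 0.035 and no longer called, and LPS/IFNγ was called lower than PBS, at -0.68. The difference between dsHMGB1 and LPS/IFNγ was 0.82 (SE 0.093, edgeR adjusted p = 6.91e-06). Mbtps1 and Mbtps2, the proteases that release SREBP2, were not called in any of the 7 comparisons in the fit of all libraries with TMM factors. Without PBS replicate 3, Mbtps1 was called lower than PBS in dsHMGB1, at -0.25, and in LPS/IFNγ, at -0.34. It was then also called lower than LPS in dsHMGB1, at -0.25, and in LPS/IFNγ, at -0.35. With total-count scaling Mbtps1 was called lower than PBS in LPS, at -0.53, and in LPS/IFNγ, at -0.86.

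Insig1 (ENSMUSG00000045294, chromosome 5, 28071363 to 28078662, plus strand), itself a target of SREBP2 as well as its brake, had normalized counts of 3035, 2952 and 2567 in PBS, 4142, 4037 and 3625 in frHMGB1, 7099.7, 7367 and 7012 in dsHMGB1, 6537, 6815 and 6705 in LPS, and 9010.3, 8563 and 8884 in LPS/IFNγ. Each of the 4 stimulated conditions lay above PBS without overlap, and LPS/IFNγ was the highest. For frHMGB1 over PBS the log2 fold change was 0.46 (SE 0.079, edgeR adjusted p = 0.00744), and for dsHMGB1 it was 1.33 (SE 0.078, edgeR adjusted p = 1.12e-07). LPS gave 1.23 (SE 0.079, edgeR adjusted p = 2.33e-07) and LPS/IFNγ gave 1.63 (SE 0.078, edgeR adjusted p = 9.18e-09). With total-count scaling Insig1 was still called higher over PBS in all 4, at 0.50, 0.96, 0.52 and 0.93.

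Insig2 (ENSMUSG00000003721, chromosome 1, 121304353 to 121332589, minus strand), whose protein also binds SCAP, had normalized counts of 1339.6, 1464 and 1557 in PBS, 1359, 1494 and 1360.1 in frHMGB1, 1389.7, 1368 and 1274 in dsHMGB1, 2579, 2336 and 2366 in LPS, and 6024, 6042 and 5923 in LPS/IFNγ. dsHMGB1 overlapped with PBS and frHMGB1, LPS was higher without overlap, and LPS/IFNγ was higher again. The log2 fold change over PBS was 0.74 (SE 0.079, edgeR adjusted p = 1.34e-05) and in LPS/IFNγ it was 2.05 (SE 0.077, edgeR adjusted p = 2.72e-10), whereas in dsHMGB1 it was -0.11 (SE 0.079), which was not called. For dsHMGB1 over LPS it was -0.85 (SE 0.080, edgeR adjusted p = 1.91e-05) and for dsHMGB1 over LPS/IFNγ it was -2.16 (SE 0.078, edgeR adjusted p = 1.66e-09). With total-count scaling the difference between LPS and PBS shrank to 0.052 and was no longer called, and dsHMGB1 was called below PBS at -0.47, while dsHMGB1 stayed below LPS at -0.52 and below LPS/IFNγ at -1.83.

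The other targets of SREBP2 in the list were Stard4, a carrier that moves cholesterol between membranes, and Acss2, which makes acetyl-CoA from acetate. Stard4 (ENSMUSG00000024378) had normalized counts of 1181, 1358 and 1069.6 in PBS, 1404, 1298 and 1319 in frHMGB1, 1544, 1745 and 1565 in dsHMGB1, 768, 807 and 788 in LPS, and 415, 431 and 427 in LPS/IFNγ. As for Sqle, dsHMGB1, LPS and LPS/IFNγ formed a descending order with no overlap. dsHMGB1 was above LPS by a log2 fold change of 1.04 (SE 0.10, edgeR adjusted p = 1.3e-05) and above LPS/IFNγ by 1.93 (SE 0.10, edgeR adjusted p = 3.5e-08). Acss2 (ENSMUSG00000027605, chromosome 2, 155517948 to 155585724, plus strand) had normalized counts of 244, 289 and 125 in PBS, 297, 306 and 299.8 in frHMGB1, 330.1, 336 and 315 in dsHMGB1, 132, 136 and 168 in LPS, and 168, 118 and 158 in LPS/IFNγ. LPS and LPS/IFNγ overlapped with each other, and both lay below all dsHMGB1 and frHMGB1 libraries. The log2 fold change of dsHMGB1 over LPS was 1.17 (SE 0.26, edgeR adjusted p = 0.00332) and over LPS/IFNγ it was 1.15 (SE 0.25, edgeR adjusted p = 0.00322).

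The comparisons with PBS share the 3 PBS libraries, and their values are given side by side. After dsHMGB1, 12 of the 28 genes were called higher and 3 lower, against 23.3% and 24.2% of all genes tested, with a median log2 fold change of 0.37 (all genes, -0.10). LPS had 7 genes higher and 11 lower, against 26.7% and 36.2%, with a median of -0.022 (all genes, -0.21). LPS/IFNγ had 4 higher and 13 lower, against 29.0% and 31.2%, with a median of -0.41 (all genes, -0.12). Higher in dsHMGB1 were Hmgcs1, Idi1, Ggps1, Fdft1, Sqle, Cyp51, Hsd17b7, Sc5d, Srebf2, Scap, Insig1 and Stard4, and lower were Mvk, Ebp and Dhcr7. Lower in LPS were Acat2, Mvk, Mvd, Sqle, Lss, Tm7sf2, Msmo1, Ebp, Dhcr7, Stard4 and Acss2. Those lower in LPS/IFNγ were Acat2, Hmgcs1, Mvk, Mvd, Fdps, Fdft1, Sqle, Lss, Tm7sf2, Msmo1, Sc5d, Dhcr7 and Stard4. Lss gave -1.44 in LPS and -1.87 in LPS/IFNγ. Of the genes higher in dsHMGB1 than in LPS, Mvd, Lss, Msmo1 and Acss2 were not called over PBS in dsHMGB1. Without PBS replicate 3, Lss was called lower there, at -0.32, and Msmo1 higher, at 0.38. Among the 12 squalene and sterol genes, dsHMGB1 had 5 higher and 2 lower, LPS had 1 and 6, and LPS/IFNγ had 0 and 7. None was higher in LPS/IFNγ at an unadjusted p under 0.05 in edgeR either, nor in DESeq2 (0 in each), and the largest log2 fold change was that of Cyp51 at 0.095 (SE 0.10, edgeR adjusted p = 0.505). With PBS replicate 3 left out, however, 2 of the 12 were called higher in LPS/IFNγ, Cyp51 at 0.23 and Ebp at 0.67, and 10 lower.

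Without PBS replicate 3, dsHMGB1 had 15 genes higher and 4 lower (29.8% and 29.0% of all genes tested), LPS had 7 and 12 (32.9% and 38.3%), and LPS/IFNγ had 7 and 18 (33.3% and 34.4%). With total-count scaling, dsHMGB1 had 5 genes higher and 8 lower (15.5% and 39.5% of all genes tested), LPS had 2 and 19 (15.7% and 55.9%), and LPS/IFNγ had 2 and 20 (17.6% and 51.9%). Under that scaling the median over PBS of the 28 genes stood at -0.024 for dsHMGB1, -0.74 for LPS and -1.14 for LPS/IFNγ, against -0.46, -0.89 and -0.81 for all genes. The number of genes called above PBS thus depends on the scaling.

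**Figure D4:**
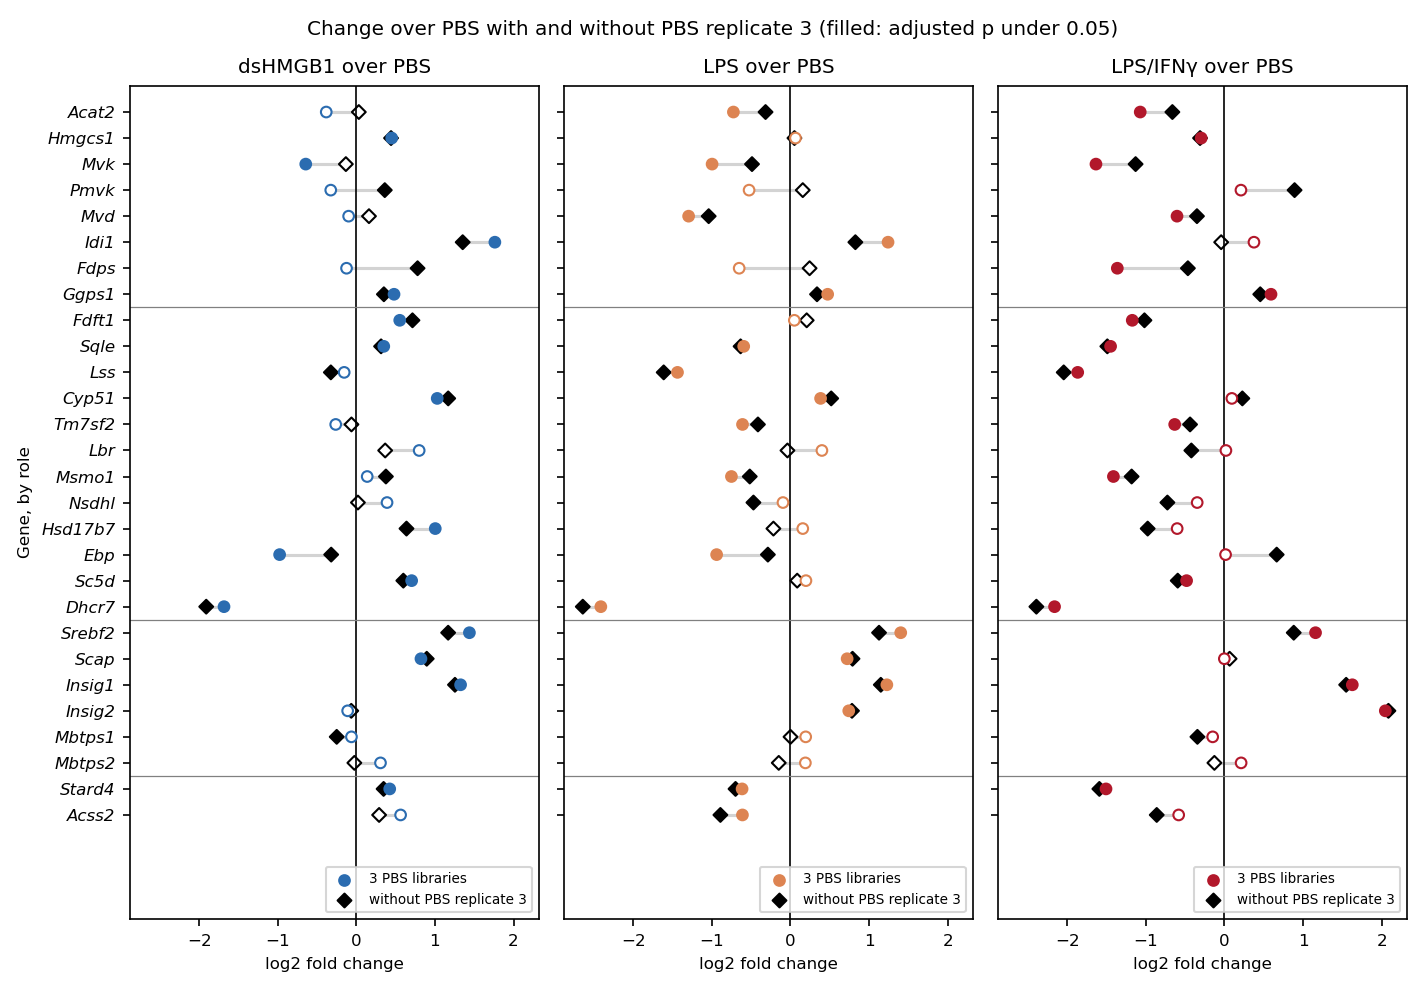
Log2 fold change over PBS of each of the 28 genes (vertical axis, ordered by role) in dsHMGB1, LPS and LPS/IFNγ, with all 3 PBS libraries (circles) and without PBS replicate 3 (diamonds), filled where the edgeR adjusted p was under 0.05. Srebf2 and Insig1 lie right of 0 and Dhcr7 left of 0 in all 3 panels with either set of PBS libraries, while Fdps, Pmvk and Ebp shift by more than 0.6 when PBS replicate 3 is left out.

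In frHMGB1, Insig1 was the 1 gene called higher and 0 were lower in edgeR, against 1.31% and 5.69% of all genes tested. DESeq2 and an unadjusted p under 0.05 in edgeR also gave 0 lower. The median log2 fold change of the 28 genes was 0.19 (all genes, -0.0079). In 9 genes all frHMGB1 libraries were above all PBS libraries, against 9.74% of all genes tested. When PBS replicate 3 was left out, 10 genes were called higher (Hmgcs1, Mvd, Idi1, Fdps, Fdft1, Sqle, Cyp51, Msmo1, Sc5d and Insig1) and 0 lower, against 8.41% and 9.09% of all genes tested, with log2 fold changes between 0.25 for Hmgcs1 and 0.77 for Fdps. The call on Insig1 was lost with no filter on low counts and in the fit of protein-coding genes.

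Neighbouring pathways were examined through lists of genes known to work beside sterol synthesis, which were counted in the same way. The endoplasmic reticulum proteins that work with INSIG and SCAP (10 genes) held 4 genes called higher over PBS and 1 lower after dsHMGB1, 5 and 1 after LPS, and 6 and 1 after LPS/IFNγ. The shares of all genes tested were 23.3% and 24.2%, 26.7% and 36.2%, and 29.0% and 31.2% in that order. Rnf145 and Rnf139, ubiquitin ligases of that membrane, rose over PBS by 2.15 (SE 0.16) and 2.34 (SE 0.33) in dsHMGB1, 2.58 (SE 0.16) and 2.61 (SE 0.33) in LPS, and 2.93 (SE 0.16) and 3.11 (SE 0.33) in LPS/IFNγ. Tmem97, a sterol-responsive membrane protein, fell, with log2 fold changes over PBS of -1.15 (SE 0.21), -1.81 (SE 0.22) and -2.27 (SE 0.22) in the same order. dsHMGB1 was above LPS/IFNγ in Tmem97 by 1.12 (SE 0.22) and below it in Rnf145 by -0.78 (SE 0.16), the latter not called with total-count scaling, at -0.46.

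The fatty acid synthesis genes (11, under the control of SREBP1) had 5 higher and 1 lower in dsHMGB1 over LPS (15.8% and 10.6% of all genes tested) and 6 higher and 2 lower over LPS/IFNγ (16.5% and 16.7%). Scd2 and Fads1, both desaturases, fell from PBS: dsHMGB1 gave log2 fold changes of -1.54 (SE 0.18) and -1.60 (SE 0.18), LPS of -2.81 (SE 0.19) and -2.53 (SE 0.19), and LPS/IFNγ of -3.01 (SE 0.19) and -2.46 (SE 0.18). Srebf1, the gene for SREBP1, was higher over PBS in LPS by 0.58 (SE 0.066) and in LPS/IFNγ by 0.68 (SE 0.066). With total-count scaling these were -0.12 and -0.0023 and were not called.

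Of the 5 oxysterol enzymes, 4 could be tested and Hsd3b7 had 0 counts. Ch25h, which makes 25-hydroxycholesterol, a sterol known to hold SREBP2 back through the INSIG proteins, averaged 8.64 normalized counts for PBS and 4.48 for frHMGB1, against 652 for dsHMGB1, 1512 for LPS and 847 for LPS/IFNγ (n = 3 each). It was lower in dsHMGB1 than in LPS by -1.21 (SE 0.24, edgeR adjusted p = 0.0206), a call lost with total-count scaling at -0.88, and the difference from LPS/IFNγ of -0.38 (SE 0.24) was not called. Cyp7b1, which breaks such oxysterols down, rose over a PBS mean of 2.10 normalized counts by 4.57 (SE 0.57) after dsHMGB1, 4.22 (SE 0.58) after LPS and 3.91 (SE 0.58) after LPS/IFNγ. It was also called higher after frHMGB1, by 2.14 (SE 0.63, edgeR adjusted p = 0.0299). Cyp27a1, a mitochondrial sterol hydroxylase, fell, with log2 fold changes of -0.98 (SE 0.11), -1.02 (SE 0.11) and -0.90 (SE 0.11).

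Among the 10 sterol transport and esterification genes, 4 were higher over PBS and 2 lower after dsHMGB1 (23.3% and 24.2% of all genes tested), 4 and 3 after LPS (26.7% and 36.2%), and 3 and 3 after LPS/IFNγ (29.0% and 31.2%). Soat1, which esterifies cholesterol for storage, fell, with log2 fold changes of -1.32 (SE 0.083), -2.18 (SE 0.083) and -1.59 (SE 0.083), and Gramd1a, a carrier of plasma membrane cholesterol to the endoplasmic reticulum, rose by 1.75 (SE 0.13), 2.85 (SE 0.13) and 2.05 (SE 0.13). The 12 genes that use isoprenoids for other ends had 3 higher over PBS and 3 lower after dsHMGB1, 3 and 5 after LPS, and 3 and 7 after LPS/IFNγ, the first 2 pairs being close to those shares of all genes. Pdss1, which makes the tail of coenzyme Q, rose by 2.25 (SE 0.16), 3.49 (SE 0.15) and 3.54 (SE 0.15).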

How the data were processed

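The authors made stranded mRNA libraries from BMDM RNA, sequenced them as paired-end reads, used STAR for alignment to GRCm38 and deposited raw counts per Ensembl gene for 15 samples. For the counting program, its annotation and its strand setting, the sources used here give nothing. Per the study's methods, DESeq2 was used with a log2 fold change cut-off of 2 and no p-value, because the replicates are technical. Samples were grouped by their labels. The 28 genes and the neighbouring lists were chosen with earlier results of these data known, so no p-value is given for a list. All 28 are named. Library values and tests are given for the 4 called genes with the largest change in each of 5 comparisons and for Srebf2, Insig1 and Insig2, and other genes are given more briefly. From each neighbouring list the named genes were taken from the 2 largest called rises and falls over PBS.

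GENCODE M21 gave symbols, positions and types for 51661 of the 51763 identifiers. Calls came from edgeR 4.0.16 (R 4.3.3): filterByExpr, TMM factors, a quasi-likelihood fit of all 15 libraries without covariates and Benjamini-Hochberg adjustment over 16919 genes, at an adjusted p under 0.05. Normalized counts, log2 fold changes (not shrunken) and standard errors (SE) came from DESeq2 1.42.0. The fit was tested on simulated counts with few changed genes and no outlying library, so that test does not bear on scaling or on PBS replicate 3. Depth was 40934540 to 80925478 counts per library, and at low counts such as those of Cyp7b1 counting error limits the precision. Alternatives were DESeq2's own test, RLE factors, other filters on low counts, protein-coding genes only, pairs of conditions fitted alone, replicate number as a block, a test against a 1.5-fold change, the study's cut-off and each library left out in turn. Total-count scaling was added after seeing the data. Transcript copies of at least 95% identity over 300 bases were searched with blastn 2.17.0.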

Additional observations from a re-analysis of the deposited data

How the results depend on the processing

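Counts of the 28 genes called are given here as higher and lower where an alternative moved them by more than 1.5 times. With the study's cut-off of 2 on the log2 scale and no p-value, the counts higher over PBS were 0 for frHMGB1, dsHMGB1 and LPS and 1 for LPS/IFNγ, and 0 in dsHMGB1 over LPS and over LPS/IFNγ and in LPS/IFNγ over LPS. The counts lower were 1 in LPS and in LPS/IFNγ over PBS and in dsHMGB1 over LPS/IFNγ, and 0 in the others. In the test against a 1.5-fold change, counts higher were 0 in frHMGB1, 5 in dsHMGB1 and 2 in LPS over PBS, 6 in dsHMGB1 over LPS, 10 in dsHMGB1 over LPS/IFNγ and 1 in LPS/IFNγ over LPS, and counts lower were 1 in dsHMGB1 and 5 in LPS over PBS, 1 in dsHMGB1 over LPS/IFNγ and 3 in LPS/IFNγ over LPS. With pairs of conditions fitted alone, counts higher were 0 in frHMGB1 and 5 in dsHMGB1 over PBS and 18 in dsHMGB1 over LPS, and counts lower over PBS were 1 for dsHMGB1, 6 for LPS and 8 for LPS/IFNγ, with 2 in dsHMGB1 over LPS and 18 in LPS/IFNγ over LPS. With total-count scaling, counts higher over PBS were 5 for dsHMGB1, 2 for LPS and 2 for LPS/IFNγ, with 17 in dsHMGB1 over LPS, and counts lower over PBS were 8 for dsHMGB1, 19 for LPS and 20 for LPS/IFNγ. The count higher in frHMGB1 was 4 by DESeq2, 3 with RLE factors, and 0 with no filter on low counts or with protein-coding genes only. The causes were not tested.

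With 1 library left out, the counts higher ranged from 1 to 10 in frHMGB1 over PBS, 10 to 15 in dsHMGB1 over PBS, 4 to 7 in LPS/IFNγ over PBS, 10 to 18 in dsHMGB1 over LPS, 13 to 21 in dsHMGB1 over LPS/IFNγ and 3 to 6 in LPS/IFNγ over LPS. The counts lower ranged from 2 to 4 in dsHMGB1 over PBS, 9 to 12 in LPS over PBS, 13 to 18 in LPS/IFNγ over PBS, 1 to 2 in dsHMGB1 over LPS, 1 to 4 in dsHMGB1 over LPS/IFNγ and 7 to 18 in LPS/IFNγ over LPS. Leaving out PBS replicate 3 gave the upper end of most ranges. dsHMGB1 replicates 2 and 3, each left out, gave the 1 gene lower in dsHMGB1 over LPS/IFNγ, which was Insig2.

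Directions that turned are given as edgeR log2 fold changes for genes called with either setting. Some values over PBS that were called with neither also changed sign. With 1 library left out, Fdps ranged from -0.38 to 0.77 in frHMGB1 and from -0.40 to 0.75 in dsHMGB1 over PBS, and Pmvk from -0.54 to 0.33 in dsHMGB1 over PBS, the positive values being those without PBS replicate 3. With total-count scaling, Sqle became -0.017 in dsHMGB1 over PBS. In LPS over PBS, Hmgcs1 became -0.63, Ggps1 -0.24, Cyp51 -0.29, Sc5d -0.51 and Mbtps1 -0.53. In LPS/IFNγ over PBS, Ggps1 became -0.11, Cyp51 -0.57 and Ebp -0.59. Insig1 became 0.022 in dsHMGB1 over LPS/IFNγ.

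The labels give the same replicate numbers in each condition, but the numbers did not pair the libraries: over 30 pairs with the same number, deviations from the group means correlated between -0.386 and 0.375, with 1 pair over 0.1. With the replicate number as a block, all 14 counts stayed within 1.5 times and 10 genes were lower in LPS and 2 in dsHMGB1 over PBS.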
